A study of Oryza sativa Japonica Group with 3 samples.

Results

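The genes described here are 8 rice loci of the cell division machinery, taken as a list of locus identifiers with their names. They are 3 B-type cyclins (CYCB1;1, CYCB2;1 and CYCB2;2), 2 B-type cyclin-dependent kinases (CDKB1;1 and CDKB2;1), 2 A-type kinases (CDKA;1 and CDKA;2) and the kinase inhibitor KRP1, out of 55759 annotated loci in the deposited values. All 8 names were found in a RefSeq gene table of rice (assembly ASM3414082v1) on the chromosome that the locus identifier gives, with 2 table entries under the name of the first cyclin. That table lists no locus identifiers of this form, so the names rest on the list itself. RNA was sequenced from whole seedlings of the cultivar Xindao-18 (Oryza sativa, Japonica group) in 3 libraries, 1 per group. The control seedlings came from untreated seed. The low fluence library mixed equal amounts of RNA of seedlings whose seed had been implanted with nitrogen ions at 1 and at 2 times 1e+17 ions per square centimetre, and carries the label of no significant damage. The high fluence library mixed RNA of the pools given 6 and 8 times 1e+17 ions per square centimetre, and is labelled as significantly damaged. The labels print the exponent without a superscript, and it was read as 1e+17. All seedlings were cultured for 96 h on moist filter paper at 28 °C, and each pool held 50 buds of similar height. The growth effect named in the labels refers to day 7, later than the sampling.

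Entry into mitosis in plants is driven by cyclin-dependent kinases, which act only when bound to a cyclin. A-type kinases serve both the start of DNA replication and the entry into mitosis and are present through the whole cycle. B-type kinases occur in plants and algae, and their transcripts, like those of B-type cyclins, build up from the G2 phase to mitosis. KRP proteins bind complexes of cyclin and kinase and inhibit them. In a young seedling, dividing cells are found mainly in the tips of the shoot and roots and in young leaf bases. In RNA from whole seedlings, a smaller share of dividing cells and less of a transcript per dividing cell cannot be told apart.

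The deposited unit is FPKM, which counts fragments per kilobase of a transcript relative to all mapped fragments, and it was summed over the annotated transcripts of each locus. Folds and log2 ratios are of FPKM + 1, which understates differences of low genes. Loci whose 3 libraries averaged 1 FPKM or more were counted as measured. Each group has a single library of pooled RNA, so no difference could be set against a spread between replicates and no p-value is given. Total counts are not given with FPKM. The steps between the lowest values put the depth of the low fluence library at 0.498 times, and that of the high fluence library at 1.36 times, the depth of the control. The number of annotated loci above 0 was 24804 in control seedlings, 23652 after low fluence and 25815 after high fluence. The 2 most abundant transcripts of each library, all assembled from reads without a gene assignment, held 73.3% of all FPKM in control seedlings, 76.3% after low fluence and 53.0% after high fluence. Identifiers are not paired with gene names in the files, so seedling markers were not checked.

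The B-type cyclins and B-type kinases had their highest FPKM in control seedlings and their lowest after high fluence, each of the 5 on its own. Both B2-type cyclins stood at 38.8% and 40.1% of their control FPKM after high fluence, and the other 3 between 51.8% and 55.7%. As deposited, CDKA;1 lay within 1.09-fold of the control after either fluence. KRP1 was at its control level after low fluence and lower after high fluence. In the high fluence library, 2 of the 7 measured members were at least 2-fold lower than in control seedlings, where 6.33% of the 18934 measured annotated loci were. None of the 7 was at least 2-fold higher, where 4.23% of loci were. A fold of at least 1.5 downward was seen for 5 of the 7, where 17.7% of loci had one. These directions depend on the scale. When each library was rescaled to the same FPKM total over all features, a total which the most abundant assembled transcripts dominate, the median log2 ratio of high fluence over control for all measured annotated loci moved to 0.56 from -0.10. On that scale no member was 2-fold lower or higher after high fluence, where 1.21% of measured annotated loci were lower and 16.8% higher. The median of the 8 members was then -0.024, and CDKB2;1, CDKA;2 and KRP1 turned to log2 ratios of 0.016, 0.044 and 0.24. CDKA;1 rose to 0.79 on that scale.

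**Figure D1:**
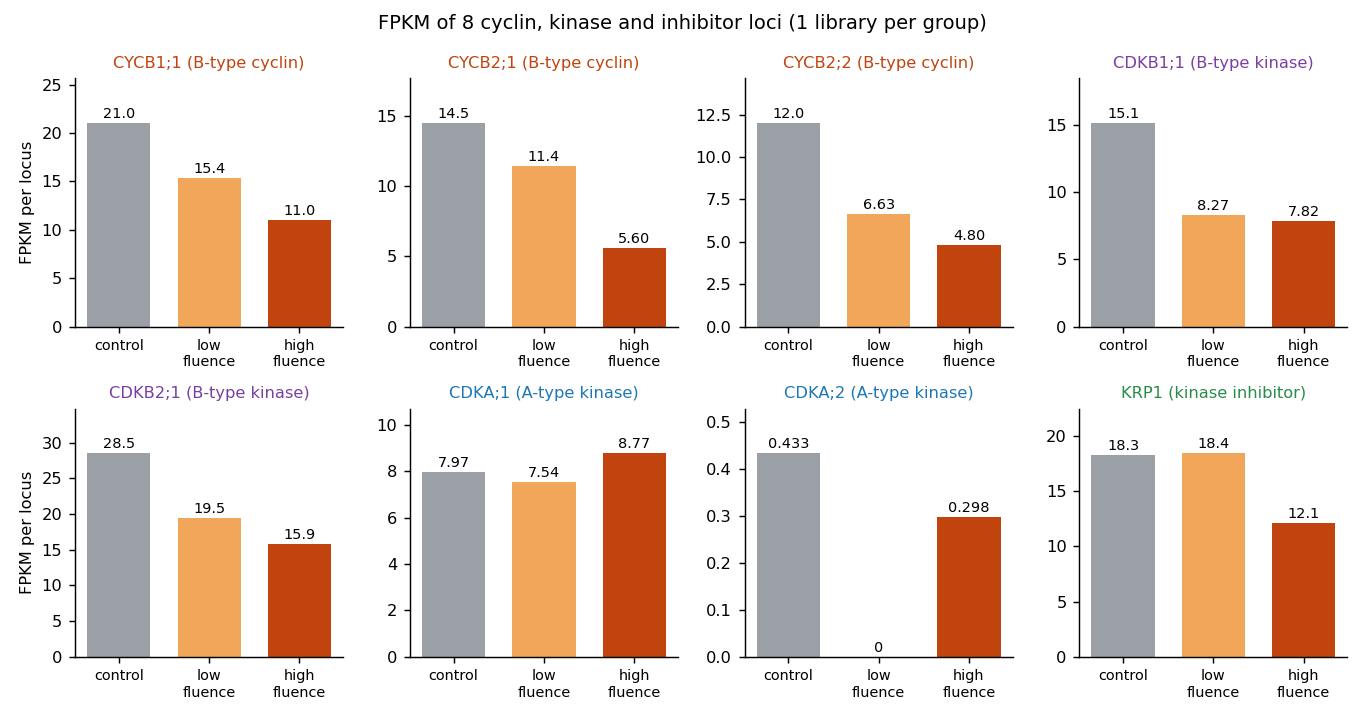
FPKM per locus (vertical axis, from 0, its own range in each panel) of the 8 members in the control, low fluence and high fluence libraries, 1 bar per library and no error bars since each group has 1 library. The bars of the 3 B-type cyclins and 2 B-type kinases step down to high fluence, whereas CDKA;1 stays between 7.54 and 8.77 FPKM. With libraries rescaled to the same FPKM total, the step from low to high fluence turns upward for both B-type kinases and for all B-type cyclins but CYCB2;1, that of CDKB1;1 also at the same total over annotated loci, and CDKB2;1 is no longer lower at high fluence than in the control.

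Among the B-type cyclins, the activating partners of mitotic kinases, CYCB1;1 (LOC_Os01g59120, chromosome 1) stood at 21.0 FPKM in control seedlings, 15.4 after low fluence and 11.0 after high fluence. It is known in plants as a marker of cells in G2 and mitosis, and its protein is destroyed as cells leave mitosis. Its high fluence value was 1.84-fold below the control, a log2 ratio of -0.88, and 8.45% of the measured annotated loci had a lower ratio. The difference was spread over both steps of fluence, with a log2 ratio of -0.43 for low fluence over control and -0.45 for high over low fluence. This depended on the scale. With libraries rescaled to the same FPKM total these ratios were -0.50 and 0.44, and that of high fluence over control was -0.064.

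CYCB2;1 (LOC_Os04g47580, chromosome 4) stood at 14.5 FPKM in control seedlings, 11.4 after low fluence and 5.60 after high fluence. This B2-type cyclin had the lowest ratio of the 8 members in the high fluence library, 2.34-fold below the control, with a log2 ratio of -1.23, and 3.94% of the measured loci lay lower. Most of that difference lay between the irradiated libraries, where the log2 ratio of high over low fluence was -0.91, against -0.31 for low fluence over control. This split depended on the processing. With libraries rescaled to the same FPKM total the ratios were -0.018 for high over low fluence and -0.39 for low fluence over control, and with the assembled unit listed beside the locus added they were -0.32 and -0.25.

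CYCB2;2 (LOC_Os06g51110, chromosome 6), the other B2-type cyclin, stood at 12.0 FPKM in control seedlings, 6.63 after low fluence and 4.80 after high fluence. Nearly all of it came from the first of its 2 annotated transcripts. It was 2.24-fold below the control in the high fluence library, a log2 ratio of -1.16, with 4.57% of the measured loci lower. Here the larger part already stood after low fluence, with a log2 ratio of -0.77 for low fluence over control and -0.40 for high over low fluence. With libraries rescaled to the same FPKM total these ratios were -0.73 and 0.38, and that of high fluence over control was -0.35. The FPKM of the first B2-type cyclin divided by that of the second was 1.21 in control seedlings, 1.72 after low fluence and 1.17 after high fluence. With the assembled unit beside the first added to it, this ratio was 2.64, 3.99 and 4.38 in the same order, so the library farthest from the control was low fluence without the unit and high fluence with it.

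Of the B-type kinases, which partner with mitotic cyclins, CDKB2;1 (LOC_Os08g40170, chromosome 8) was the most abundant member in every library. It stood at 28.5 FPKM in control seedlings, 19.5 after low fluence and 15.9 after high fluence. All of it came from the first of its 2 annotated transcripts, and the second was listed at 0 in every library. Its high fluence value was 1.75-fold below the control, a log2 ratio of -0.81, and 10.1% of the measured loci had a lower ratio. Low fluence lay between the other libraries, with a log2 ratio of -0.53 over control. With libraries rescaled to the same FPKM total, low fluence was the lowest, at -0.61 over control, where high fluence had 0.016.

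CDKB1;1 (LOC_Os01g67160, chromosome 1) stood at 15.1 FPKM in control seedlings, 8.27 after low fluence and 7.82 after high fluence. As deposited, its 2 irradiated libraries were close together, and both lay below the control. The log2 ratio over control was -0.87 after high fluence, 1.83-fold lower, and -0.80 after low fluence, 1.74-fold lower. Of the measured loci, 8.64% had a lower ratio after high fluence and 5.31% after low fluence. This kinase had the lowest ratio of the measured members after low fluence, where the first B2-type cyclin had it after high fluence. Both comparisons use the same control library. The closeness of the irradiated libraries depended on the scale. With libraries rescaled to the same FPKM total, the log2 ratio of CDKB1;1 over control was -0.072 after high fluence and -0.79 after low fluence. That of high over low fluence was then 0.71.

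The A-type kinases, which serve both replication and mitosis, did not share this order. CDKA;1 (LOC_Os03g02680, chromosome 3) stood at 7.97 FPKM in control seedlings, 7.54 after low fluence and 8.77 after high fluence. Its log2 ratio over control was 0.12 after high fluence and -0.07 after low fluence, and these directions held under all 4 other scalings tried. The size did not. With libraries rescaled to the same FPKM total, the log2 ratio was 0.79 for high fluence over control and 0.95 for high over low fluence. By its high fluence ratio as deposited, CDKA;1 lay above 67.3% of the measured loci. The transcript LOC_Os03g02680.2 carried most of the sum, at 5.21 FPKM in control seedlings, 4.77 after low fluence and 6.79 after high fluence. LOC_Os03g02680.3 ran the other way after high fluence, at 1.82, 1.69 and 0.747 FPKM in the same order, and made up 22.8%, 22.4% and 8.52% of the locus. LOC_Os03g02680.1 stood at 0.944, 1.08 and 1.23 FPKM. Shares of transcripts rest on how reads of shared exons were divided, a step the sources used here do not describe.

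CDKA;2 (LOC_Os02g03060, chromosome 2) was the only member under the minimum of 1 FPKM. It stood at 0.433 FPKM in control seedlings, was listed at 0 after low fluence and stood at 0.298 after high fluence. In control seedlings all of it came from LOC_Os02g03060.1, and after high fluence 88.0% came from LOC_Os02g03060.2. No fold is given for it against the low fluence library. The 2 A-type kinases are closely related proteins, and how reads that fit both loci were counted is not described in the sources used here.

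KRP1 (LOC_Os02g52480, chromosome 2), the inhibitor, stood at 18.3 FPKM in control seedlings, 18.4 after low fluence and 12.1 after high fluence. The control and low fluence libraries were alike, and high fluence stood apart from both. The log2 ratio was 0.010 for low fluence over control, -0.55 for high fluence over control and -0.56 for high over low fluence, a 1.48-fold lower value. Of the measured loci, 13.9% had a lower ratio of high over low fluence. The direction of KRP1 turned in all 3 comparisons when libraries were rescaled to the same FPKM total, to -0.11, 0.24 and 0.35 in the order just given.

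**Figure D2:**
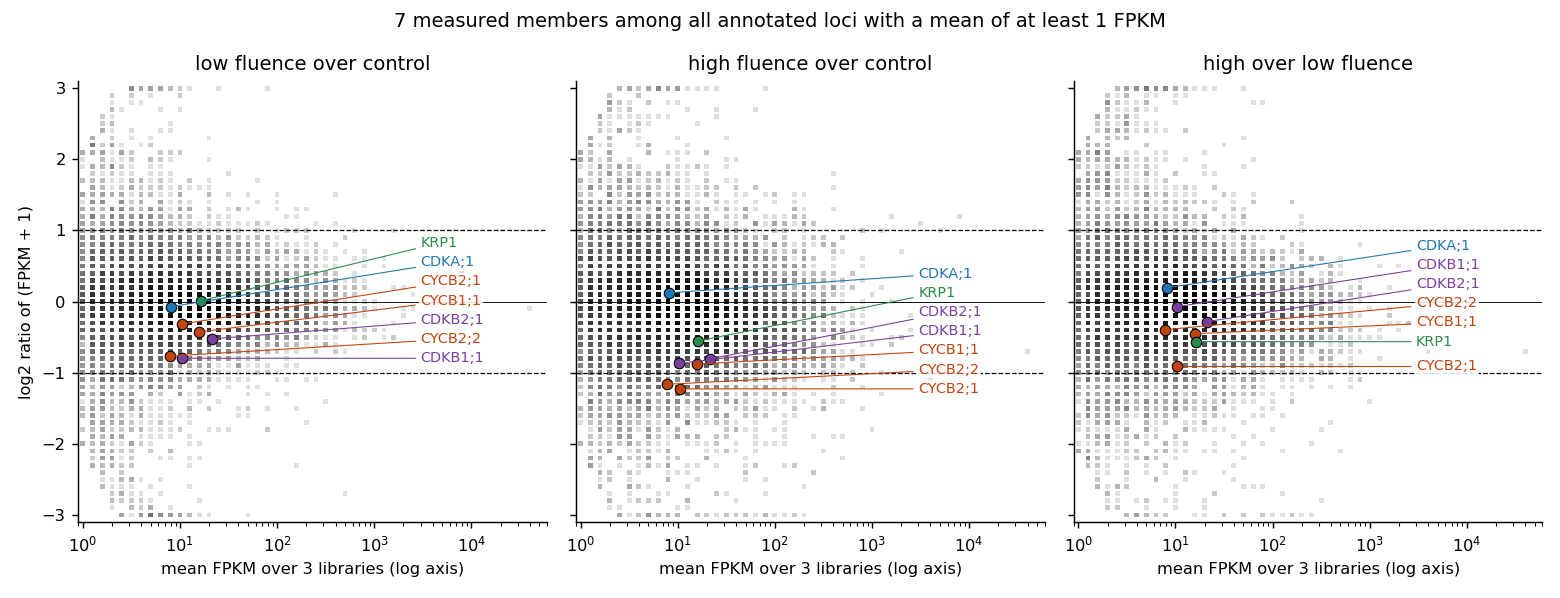
Log2 ratio of (FPKM + 1) against mean FPKM (log axis) for low fluence over control, high fluence over control and high over low fluence, with the 7 measured members as coloured points, all 18934 measured annotated loci as grey squares that darken with the number of loci, ratios beyond 3 drawn at 3, and dashed lines at 2-fold. In the panel of high fluence over control, both B2-type cyclins lie below the lower 2-fold line at -1.23 and -1.16. The other B-type members lie there between -0.88 and -0.81, and CDKA;1 lies at 0.12. Rescaling to the same FPKM total moves CDKB2;1 and KRP1 above 0 and CDKA;1 to 0.79.

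The low fluence library addresses whether fluences without significant growth inhibition left the cell division genes as in untreated seedlings. None of the 7 measured members was at least 2-fold lower than in the control, where 3.52% of measured annotated loci were, and none was at least 2-fold higher, where 3.06% were. At least 1.5-fold lower were 2 of the 7, CYCB2;2 and CDKB1;1, where 9.07% of loci were. The median log2 ratio was -0.47 over the 8 members, which takes in CDKA;2 with its 0 in the low fluence library. Over the 7 measured members it was -0.43 and over the 5 B-type cyclins and kinases -0.53, against -0.05 over all measured annotated loci. The 5 B-type members lay between -0.80 and -0.31. The low fluence library was the shallowest of the 3, and the part of depth in these differences was not tested.

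Against the same control, the high fluence library gave a median log2 ratio of -0.84 over the 8 members and -0.87 over the 7 measured ones. Over the 5 B-type members it was -0.88, where all measured annotated loci gave -0.10. The 5 B-type members lay between -1.23 and -0.81. Of the 9265 annotated loci that averaged 10 FPKM or more, 5.20% were at least 2-fold lower and 17.3% at least 1.5-fold lower, and of the 5 members at that level 1 and 4 were. With each library rescaled to the same FPKM total, the median of the 5 B-type members was -0.072. That is 0.64 below the median of all measured loci on that scale, where it was 0.78 below as deposited. Rescaled values are smaller, so the 1 added to them weighs more, and the 2 distances do not differ through the scaling factors alone.

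The high fluence library was also set against the low fluence library, which asks what differs between doses with and without growth inhibition. None of the 7 measured members was at least 2-fold lower after high fluence, where 4.56% of measured annotated loci were, and none was at least 2-fold higher, where 3.61% were. CYCB2;1 alone of the 7 was at least 1.5-fold lower, at 1.88-fold, where 13.2% of loci were, and it no longer was with its assembled unit added, at a log2 ratio of -0.32, or with libraries rescaled to the same FPKM total, at -0.018. CDKA;1 was 1.14-fold higher, and with libraries rescaled to the same FPKM total its log2 ratio was 0.95. The median log2 ratio was -0.34 over the 8 members and -0.40 over the 5 B-type members, against -0.06 over all measured loci. Over the 7 measured members it was also -0.40. Rescaling to the same FPKM total turned the medians of the 8 and of the 5 to 0.41 and 0.44, against 0.72 over all measured loci.

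Ratios between members within a library do not depend on how the libraries are scaled. The summed FPKM of the 3 B-type cyclins was 47.5 in control seedlings, 33.5 after low fluence and 21.4 after high fluence, and that of the 2 B-type kinases 43.6, 27.8 and 23.7. The A-type kinases summed to 8.41, 7.54 and 9.07 FPKM in the same order, nearly all of it from CDKA;1. B-type kinases thus stood at 5.19 times the A-type kinases in control seedlings, 3.68 times after low fluence and 2.61 times after high fluence. For the B-type cyclins this ratio was 5.65 in control seedlings, 4.44 after low fluence and 2.36 after high fluence. For KRP1 it was 2.18, 2.44 and 1.34. The B-type cyclins and B-type kinases kept closer to each other, with a ratio of 1.09 in control seedlings, 1.21 after low fluence and 0.904 after high fluence.

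**Figure D3:**
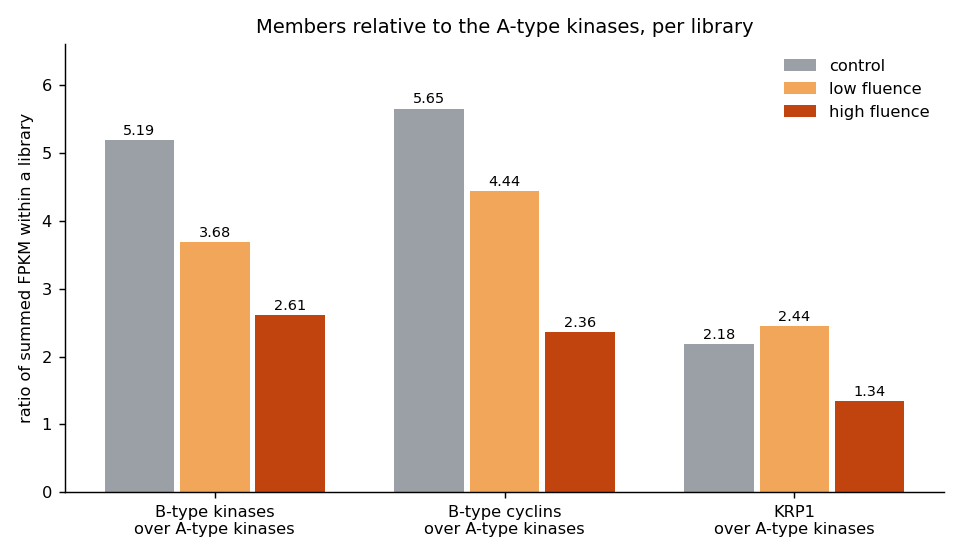
Summed FPKM of the B-type kinases, the B-type cyclins and KRP1 divided by that of the A-type kinases in the same library (vertical axis, from 0), 1 bar for each of the control, low fluence and high fluence libraries. Both B-type groups step down, to 2.61 and 2.36 at high fluence against 5.19 and 5.65 in the control, and KRP1 is lowest at high fluence, and adding the assembled units listed beside the loci changes these ratios.

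The order of the members by FPKM also differed between libraries, and no neighbours in it can be set against a spread. In control seedlings the order was CDKB2;1, CYCB1;1, KRP1, CDKB1;1, CYCB2;1, CYCB2;2, CDKA;1 and CDKA;2. In both irradiated libraries KRP1 stood above the B1-type cyclin. In the low fluence library CYCB2;1 stood above CDKB1;1, and the better expressed A-type kinase stood above the lowest of the B-type cyclins. In the high fluence library that A-type kinase was the fourth of the 8, where it was the seventh in the control, and stood above 1 of the B-type kinases and both B2-type cyclins. Among all measured annotated loci, CYCB2;1 lay above 60.9% by level in control seedlings, 55.0% after low fluence and 35.9% after high fluence. CDKB2;1 fell less, and lay above 78.0%, 70.0% and 65.6%. CDKA;1 lay above 43.8%, 43.0% and 48.4% of them in the same order.

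Assembled units, transcripts built from reads without a gene assignment, were listed directly beside 4 of the members, 5 units in all. Such a unit may overlap the locus and share its reads, or belong elsewhere, since stretches of a chromosome alternate in the row order. Beside CYCB2;1, the unit CUFF.8845 (6 transcripts) stood at 17.2 FPKM in control seedlings, 15.1 after low fluence and 15.4 after high fluence, above the cyclin in each library. Its transcripts did not run alike. CUFF.8845.3 stood at 10.9, 10.3 and 6.73 FPKM in the same order and CUFF.8845.7 at 3.95, 3.80 and 2.44. CUFF.8845.4 stood at 0.316, 0.965 and 2.68 FPKM and CUFF.8845.5 at 0.315, 0 and 3.58, both highest after high fluence. CUFF.8845.6 was above 0 in the control only. The whole unit and the cyclin added together gave 31.7, 26.5 and 21.0 FPKM. The log2 ratio of high fluence over control became -0.57, which ends the 2-fold call of this cyclin. Beside CYCB1;1, CUFF.1511 stood at 3.09 FPKM in control seedlings and was listed at 0 in both irradiated libraries, and CUFF.1526 stood at 1.46, 2.26 and 1.07 FPKM in the order of fluence. With both added, that cyclin passed 2-fold, at a log2 ratio of -1.02 for high fluence over control. CUFF.13368, beside CDKB2;1, was listed at 0 in the control and low fluence libraries and stood at 0.770 FPKM after high fluence.

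The unit beside CDKA;2, CUFF.4686, was far more abundant than the locus itself, at 8.18 FPKM in control seedlings, 3.98 after low fluence and 2.80 after high fluence. Together with the kinase it gave 8.62, 3.98 and 3.09 FPKM, a log2 ratio of -1.23 for high fluence over control, in the direction of the B-type members and not of the other A-type kinase. With the units added to all 4 members, the B-type kinases stood at 2.63 times the A-type kinases in control seedlings, 2.41 times after low fluence and 2.06 times after high fluence. The B-type cyclins then stood at 4.17, 4.41 and 3.19 times and KRP1 at 1.10, 1.60 and 1.02 times. The differences between libraries in the B-type ratios were smaller with the units than without them, and the B-type cyclin ratio was then highest after low fluence. Whether CUFF.4686 is a transcript of this kinase was not tested, since the files give no coordinates.

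**Figure D4:**
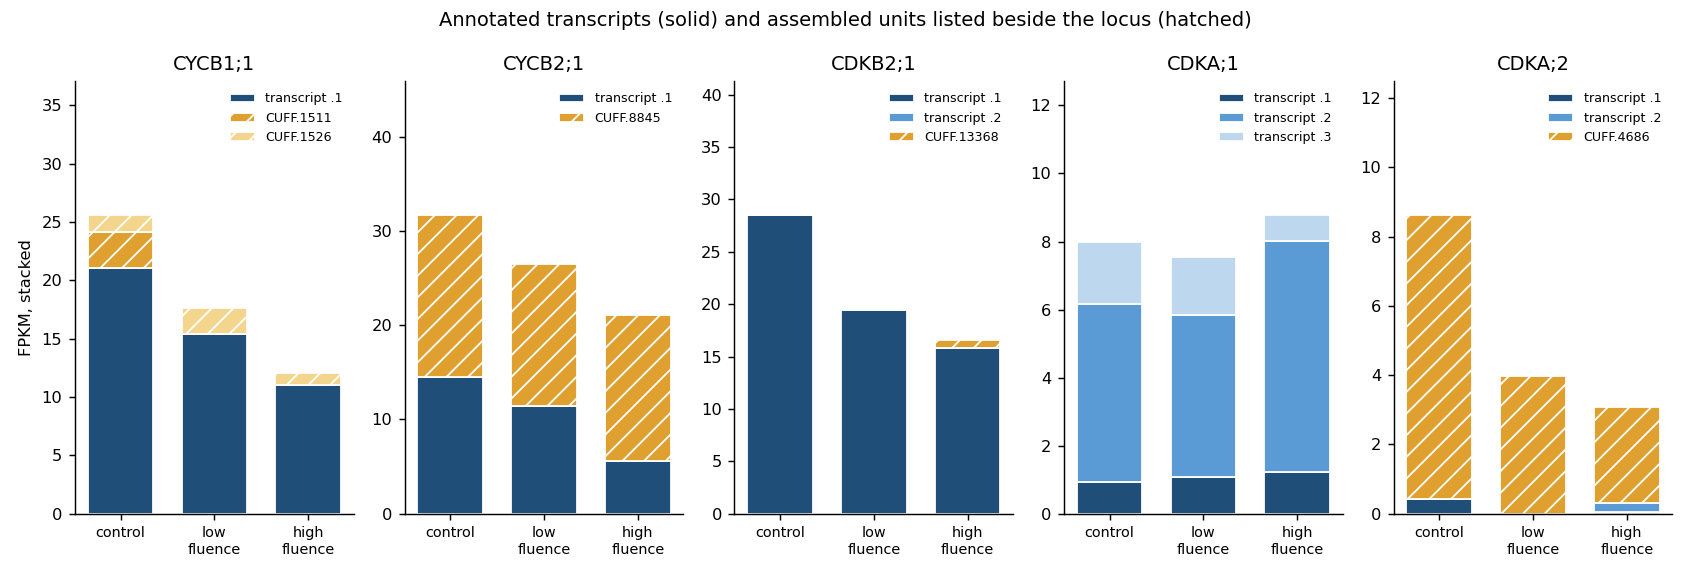
FPKM (vertical axis, from 0, its own range in each panel) of the annotated transcripts of CYCB1;1, CYCB2;1, CDKB2;1, CDKA;1 and CDKA;2, stacked as solid bars, with the assembled units listed directly beside the locus stacked above as hatched bars, in the control, low fluence and high fluence libraries. CUFF.8845 adds 15.1 to 17.2 FPKM in each library, and CUFF.4686 makes up most of each bar in its panel.

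Loci of like pattern were sought among the 9260 other annotated loci that averaged 10 FPKM or more, by distance to the mean log2 ratios over control of the 5 B-type members, -0.57 after low fluence and -0.99 after high fluence. LOC_Os01g12650 on chromosome 1 was nearest, at 36.2 FPKM in control seedlings, 24.5 after low fluence and 17.8 after high fluence. LOC_Os08g34210 on chromosome 8 followed, at 98.7, 65.4 and 49.7 FPKM. The distances were 0.023 and 0.024 on the log2 scale, over 3 libraries. A total of 507 loci, or 5.48%, lay as near to that mean as the farthest of the 5 B-type members, at 0.35.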

How the data were processed

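The authors deposited FPKM values, 1 per transcript, per the file headers, for 87523 transcripts in each of 3 libraries, of which 21257 were assembled from reads. TopHat2 2.0.5 is named in the submitters' processing notes. For the assembler, genome build, annotation and strand setting, nothing is given in the sources used here. FPKM was summed over the transcripts of a locus and compared as log2 of (FPKM + 1), with Python 3.11.15 and pandas 2.3.3. Calls were folds of at least 2, and of at least 1.5, among the 18934 annotated loci that averaged 1 FPKM or more. The fold rule was tested on simulated counts of equal depth with counting noise only. The planted folds were larger than the folds called here, so that test does not bear on the calls near 2-fold or 1.5-fold. Depth is unknown, so no counting interval is given. Relative depth came from single-transcript loci under 0.2 FPKM, of which 91.7% of 494 for low fluence over control and 83.4% of 914 for high fluence over control lay within 1% of a common step times a ratio of whole numbers up to 6. All 8 members are named, with the assembled units directly beside them and the 2 loci nearest in pattern. The members and rules were chosen with earlier results of these data known. Alternatives were 4 scalings, pseudocounts of 0.1 and 5, other minimum means and folds, the highest transcript of each locus, and added assembled units. None of the 53 entries of the RefSeq table named as cyclins, cyclin-dependent kinases or KRP proteins carried a locus identifier of the files, so other genes of the pathway were not analysed here, and no sequence is shown.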

Additional observations from a re-analysis of the deposited data

How the results depend on the processing

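No paired analysis was possible because each group has 1 library. Without replicates, a value counted as moved when it changed by over 1.5 times or passed 2-fold. Between high fluence and control, 2 members were at least 2-fold different. That count was 0 when each library was rescaled to a total of 1000000 FPKM over all features, where 1.21% of measured annotated loci were lower and 16.8% higher, with a pseudocount of 5, where 2.24% were lower, or at 3-fold, where 2.01% were lower. It was 1 at a minimum mean of 10 FPKM, where 5.20% of loci at that level were lower, and 5 at 1.5-fold, where 17.7% were. With assembled units added it was 3, when CYCB2;1 left and CYCB1;1 and CDKA;2 entered. CDKA;2 passed the minimum of 1 FPKM only with its unit. Units were added to the members only, so no share over all loci stands beside that count. At 1.5-fold, 2 passed between low fluence and control, where 9.07% of loci were lower, and 1 between high and low fluence, where 13.2% were. With a pseudocount of 0.1, 1 was at least 2-fold lower between high and low fluence, where 7.05% of loci were. Under the rescaled total the median log2 ratio for high fluence over control was -0.024 over the 8 members and -0.072 over the 5 B-type members, and for high over low fluence 0.41 and 0.44. These medians otherwise moved by less than 1.5 times, also over the 7 measured members, an alternative added after seeing the data. With the highest transcript of each locus, which leaves out part of CDKA;1, the ratios to the A-type kinases rose in every library. The B-type kinases then had 7.73 (control), 5.82 (low fluence) and 3.47 (high fluence). The B-type cyclins had 8.42, 7.01 and 3.13 in this order, and KRP1 had 3.24, 3.86 and 1.78. Only the low fluence ratios moved by over 1.5 times, and each group ranked the libraries as before. With assembled units added, the B-type kinases stood at 2.63 times in the control and 2.41 times at low fluence, and KRP1 at 1.10 and 1.60 times. Of 192 values of single members under alternatives, 168 moved by less than 1.5 times without crossing 2-fold and 24 moved further or crossed it. Part of the 168 could not move, since members with 1 transcript have no other to leave out and members without a unit have none to add.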

Other observations

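The measured annotated loci with the next lower and next higher number beside each member, 16 in all, were looked at after the members' values had been seen. Their median log2 ratio for high fluence over control was -0.06, where the 8 members had -0.84. After high fluence 1 of the 16 was at least 2-fold lower than in the control, where 6.33% of measured annotated loci were. Another 1 was at least 2-fold higher, where 4.23% were. The lower one, LOC_Os08g40180, follows CDKB2;1 on chromosome 8 and stood at 21.8 FPKM in control seedlings, 14.9 after low fluence and 7.56 after high fluence, 2.66-fold below the control at the high fluence. The higher one, LOC_Os02g52470, precedes KRP1 on chromosome 2 and stood at 0.0023 FPKM in control seedlings, 3.20 after low fluence and 5.05 after high fluence. It counted as measured only through its irradiated libraries, so its higher call is in part set by that filter. LOC_Os03g02685, after CDKA;1 on chromosome 3, stood at 22.5, 19.1 and 14.9 FPKM in that order.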
